A study of Homo sapiens with 24 samples.

Results

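The arrays described here are 10 of the 24 arrays of the series, all from PNT1a, an immortalised line of prostate epithelium, and they fall into 2 sides that cut across the transfected construct. Side A holds 4 arrays, namely replicates 3 and 4 of the cells labelled as carrying HIP1 and replicates 1 and 2 of the vector cells. Side B holds 6 arrays, namely HIP1 replicates 1, 2 and 5 and vector replicates 3, 4 and 5. The members were selected on the measured log2 values, and no label tells them apart, so every difference between them is given as a description without a test. The PNT1a arrays numbered 6, 1 for each construct, belong to neither side.

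The study asked how gene expression differs when HIP1, which links clathrin coats to the actin cytoskeleton during endocytosis, is overexpressed in prostate cells. The HIP1 group is a PNT1a line with a stable HIP1 construct and its control a PNT1a line with a stable empty vector, both grown in RPMI medium with 10% fetal bovine serum under selection with G418 at 0.8 mg/ml. The cancer line LNCaP, given HIP1 or vector by transient transfection and taken on day 4, makes up the other 12 arrays and serves here as values outside the sides. The labels name 6 biological replicates per group and do not say whether a stable line is a clone or a pool. The HIP1 probe read 7.83 and 7.90 (log2 intensity) in the side A HIP1 arrays and 7.84 and 7.64 in the side A vector arrays. In side B it read 7.89, 7.92 and 8.09 in HIP1 arrays and 7.70, 7.78 and 7.86 in vector arrays. HIP1 and vector arrays overlap, and the HIP1 probe differed by 0.16 (limma adjusted p = 0.0919 over the 10 arrays), so "HIP1 array" below means an array labelled as HIP1.

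Immediate early genes such as FOS, FOSB, EGR1 and JUNB are transcribed within minutes of serum, growth factors, stretch, temperature shifts or other stress, without new protein synthesis, and their mRNAs decay quickly. Many of the genes induced with them are brakes on the same signals, such as the MAP kinase phosphatases DUSP1 and DUSP5 and the mRNA decay factor ZFP36. Epithelial cells in culture also hold slower programmes, among them the metallothioneins, which answer zinc and glucocorticoids, and the integrated stress response, in which ATF4 drives amino acid synthesis when translation is curbed.

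Values are deposited log2 probe intensities with an array median of 6.56, and a level of 6.97 separates signal from background. The 12605 probes described exceeded it on 4 or more of the 10 arrays. Each value of side A minus side B comes from a fit of side plus construct, which here equals the mean of the difference within HIP1 arrays and the difference within vector arrays. A probe is called when this value is at least 2-fold and the side A arrays all lie beyond the side B arrays, in the same direction, in both constructs. By this rule 54 probes were higher in side A (0.428% of those described) and 2 were lower (0.0159%), and since the rule used the same values nothing is read from these shares. The 54 probes stand for 47 named genes and include 4 probes without a single gene symbol. For 5 of the 54 the side B mean lay below the level, so only a bound holds for them, and 2 of those had no side B array above it. Just inside the 2-fold threshold stood IL1A and H2AC18 (1.01), and just outside it ID1 (0.99) and C11orf96 (0.98). The median over all 12605 probes was -0.01, which the normalization of the arrays to one distribution sets near 0, so a shift of all genes could not be seen. After each construct's mean was removed, the first component held 45.1% of the variance and separated the sides. The second held 18.7% and ran opposite ways in the constructs. Its scores were 0.36 and 0.37 in side A HIP1 arrays and -0.39 and -0.40 in side A vector arrays. In side B they were -0.41 to -0.15 in HIP1 arrays and 0.24 to 0.28 in vector arrays. Arrays of one side but of different constructs correlated at 0.11 to 0.36, against -0.34 to -0.16 for arrays of different sides and constructs, over the same probes that defined the sides.

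**Figure D1:**
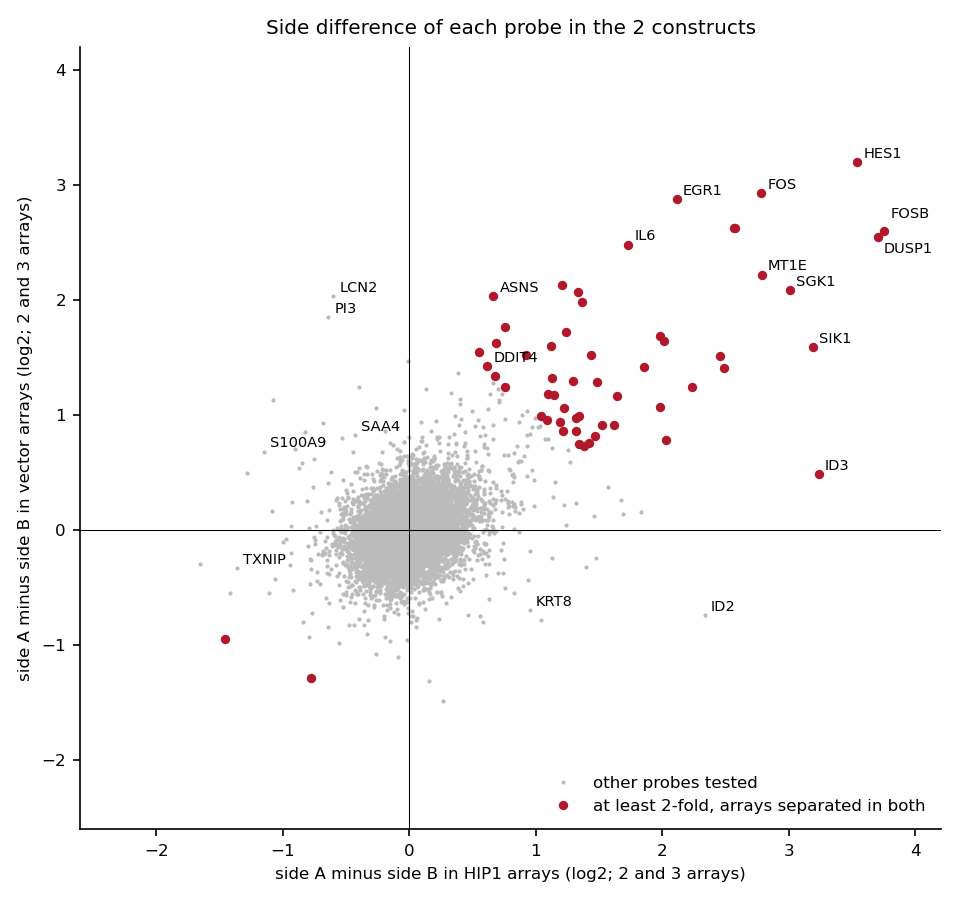
Each point is a probe, with its side A minus side B difference in HIP1 arrays on the x axis and in vector arrays on the y axis (both log2, 2 side A and 3 side B arrays each), and red points are the called probes. The 54 probes higher in side A reach 3.37 for HES1, 2 called probes lie at the lower left, and a few genes such as ID2, LCN2 and PI3 lie in the corners where the constructs differ in sign.

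Of the 31 gene lists, that of immediate early and ERK feedback genes had the most genes called higher in side A. The lists were chosen with earlier results of these data known and the sides came from the same values. The shares and medians of a list therefore only describe these arrays. Of 32 listed immediate early and ERK feedback genes, 30 had a named probe and 27 were above the level. Among these, 9 were called higher and 0 lower, 19 had all side A arrays above all side B arrays in both constructs (6.8% of all probes did so, and 8.2% did so downward), and the median difference was 0.75 against -0.02 over all genes described. FOS, a subunit of the AP-1 transcription factor, read 10.07 and 9.82 in the side A HIP1 arrays and 10.20 and 9.98 in the side A vector arrays. In side B it read 7.05, 7.26 and 7.19 in HIP1 arrays and 7.14, 7.15 and 7.20 in vector arrays. FOS was therefore close to background on every side B array and well above it on every side A array, 10.02 ± 0.16 against 7.16 ± 0.07 (SD, n = 4 and 6), a 7.24-fold difference. The bulk RNA of a culture cannot tell more cells with a gene from more RNA per cell, here or for the genes that follow.

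FOSB, a close relative of FOS, behaved alike, at 10.38 ± 0.49 in side A and 7.20 ± 0.25 in side B (9.05-fold). EGR1, a zinc-finger factor induced by serum through its CArG boxes, read 11.08 and 10.85 in the side A HIP1 arrays and 12.29 and 12.11 in the side A vector arrays. In side B EGR1 read 9.06, 8.73 and 8.76 in HIP1 arrays and 9.36, 9.27 and 9.33 in vector arrays. EGR1 lay above background on both sides, and its side difference was 2.11 in HIP1 arrays and 2.88 in vector arrays. DUSP1, the phosphatase that switches off p38, JNK and ERK kinases, was among the brightest of these genes, with 13.21 and 13.07 in the side A HIP1 arrays and 13.15 and 13.12 in the side A vector arrays. In side B DUSP1 read 9.44, 9.48 and 9.39 in HIP1 arrays and 10.51, 10.61 and 10.62 in vector arrays. The side A values of DUSP1 were alike in both constructs (13.14 ± 0.06, n = 4), while the side B values split by construct, so the difference was 3.70 in HIP1 and 2.55 in vector arrays.

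The other called genes of the group were DUSP5 (1.83), a nuclear phosphatase of ERK, MYC (1.67), the growth regulator, ZFP36 (1.22), which targets AU-rich mRNAs, KLF10 (1.16) and JUNB (1.02). KLF10 is named here after its value was seen. Just short of 2-fold stood HBEGF (0.96), an EGF receptor ligand, while JUN, the usual partner of FOS, differed by 0.52. The ERK-induced regulators DUSP6 (0.13) and SPRY4 (0.13) showed almost no difference, and SPRY1 had the lowest value of the list at -0.28.

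The promoters of EGR1 and DUSP1 are shown because these genes carry the pattern and each holds an intact copy of a signal-response motif. EGR1 lies on the plus strand at chr5:138465229-138465528 and DUSP1 on the minus strand at chr5:172771146-172771445 (RefSeq, GRCh38.p14, 250 bases before to 50 after the start). Capitals mark the CArG boxes of EGR1 and the cAMP response element TGACGTCA of DUSP1.
EGR1: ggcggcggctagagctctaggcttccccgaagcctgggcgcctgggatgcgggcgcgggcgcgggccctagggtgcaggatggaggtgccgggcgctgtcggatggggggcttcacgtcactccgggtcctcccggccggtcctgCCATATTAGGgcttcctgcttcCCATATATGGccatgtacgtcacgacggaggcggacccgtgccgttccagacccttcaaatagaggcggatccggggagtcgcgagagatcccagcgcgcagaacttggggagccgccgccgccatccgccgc
DUSP1: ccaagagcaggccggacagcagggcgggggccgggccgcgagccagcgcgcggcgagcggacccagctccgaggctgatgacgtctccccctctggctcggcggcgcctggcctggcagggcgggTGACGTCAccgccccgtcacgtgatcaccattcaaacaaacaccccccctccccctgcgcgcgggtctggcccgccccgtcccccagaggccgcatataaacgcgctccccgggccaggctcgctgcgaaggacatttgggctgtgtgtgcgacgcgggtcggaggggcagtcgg

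**Figure D2:**
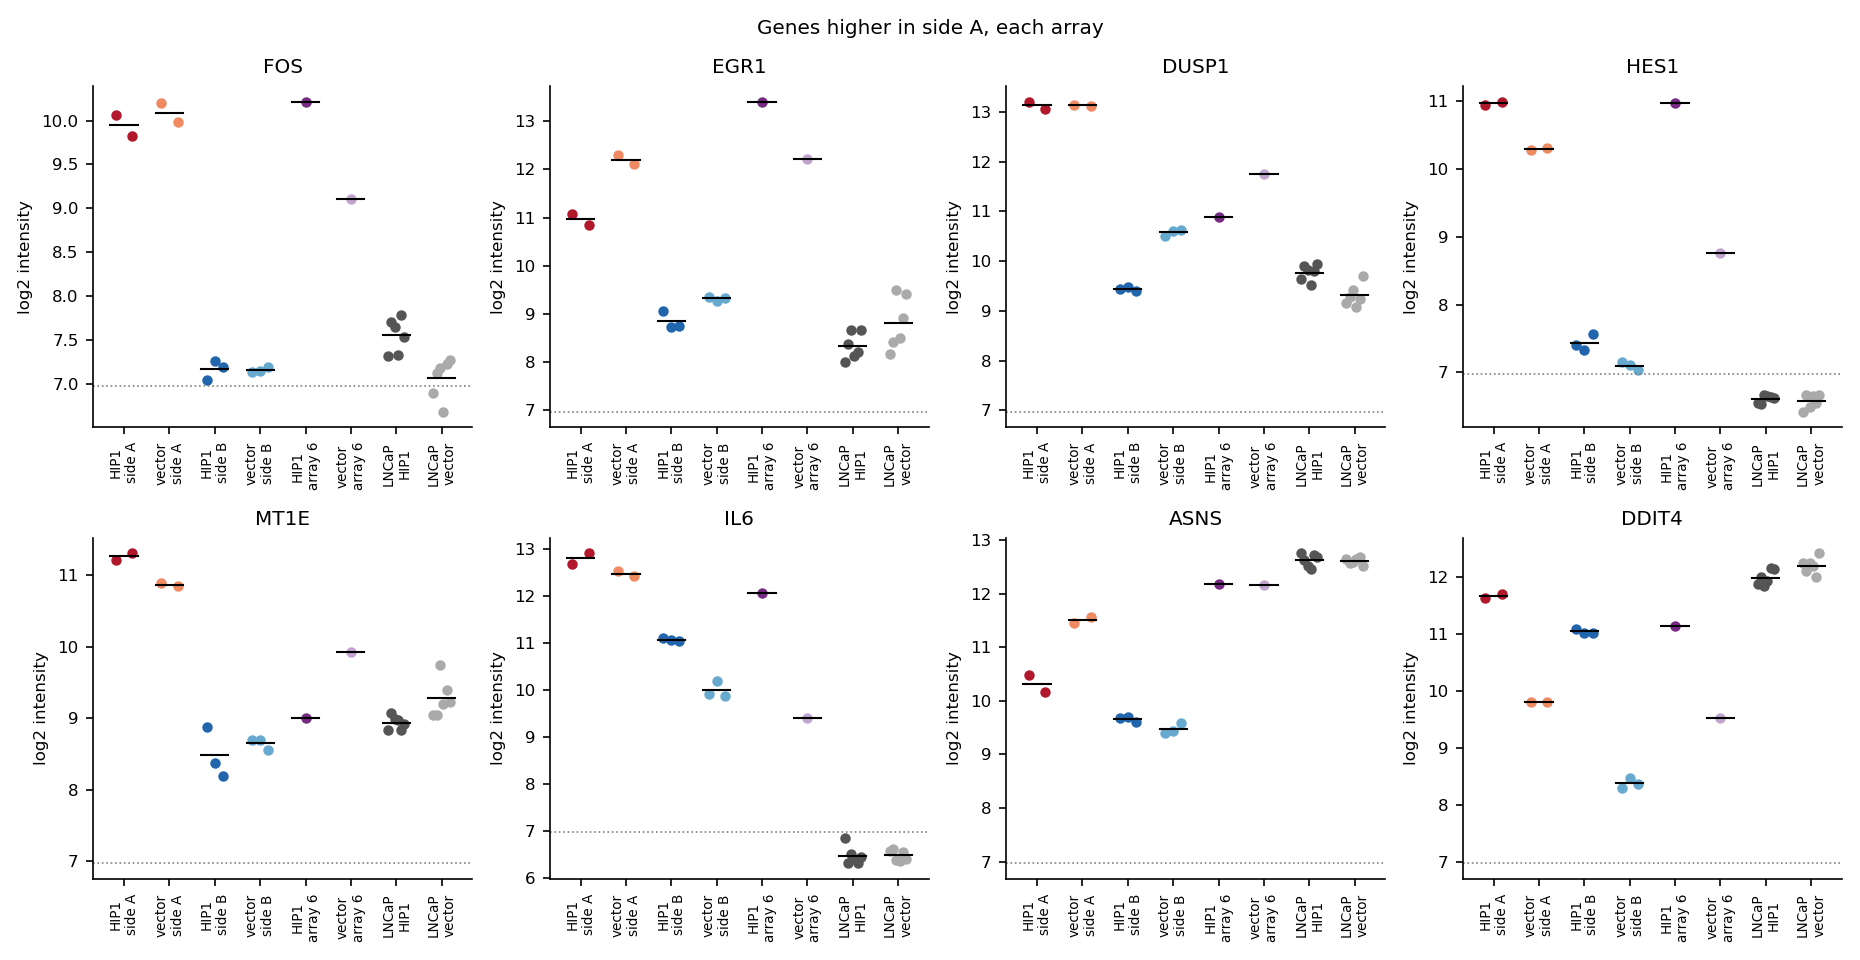
Each panel shows 1 gene, with the log2 intensity of every array on the y axis, black bars for group means and a dotted line at the background level of 6.97. FOS, EGR1, DUSP1, HES1, MT1E, IL6, ASNS and DDIT4 all lie higher in side A than in side B within each construct, and the arrays numbered 6 and the LNCaP arrays are set to the right.

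Several of the largest differences belonged to transcriptional repressors and signalling regulators outside that list. HES1, a repressor best known as a target of Notch, had the largest difference of all, 3.37 or 10.3-fold. HES1 read 10.94 and 10.999 in the side A HIP1 arrays and 10.28 and 10.31 in the side A vector arrays. In side B HES1 read 7.40, 7.33 and 7.56 in HIP1 arrays and 7.15, 7.11 and 7.04 in vector arrays. These side B values were just above the background level, and no LNCaP array exceeded 6.67.

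BHLHE40, a repressor tied to the circadian clock and hypoxia, was 2.60 higher in side A, by nearly the same amount in HIP1 (2.58) and vector arrays (2.62). TRIB1, a pseudokinase that directs protein degradation, had tight values on both sides, 11.76 ± 0.05 against 9.16 ± 0.08 (n = 4 and 6), with 2.57 in HIP1 and 2.63 in vector arrays. SIK1, a kinase that restrains CREB-dependent transcription, differed by 3.19 in HIP1 arrays and by 1.59 in vector arrays. CSRNP1, a nuclear protein of the immediate early class, differed by 1.94 and TSC22D1, a leucine zipper protein responsive to TGF-beta, by 1.84. TSC22D1 was called by both of its probes that lay above the level. NR4A2, an orphan nuclear receptor of the same fast class, and RASD1, a small GTPase, were at or below background in side B and at least 1.55-fold and 2.24-fold higher in side A, against a side B mean set to the level. These 2 genes are named after their values were seen.

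Cytokines and targets of NF-kappaB formed another group. Of 27 listed genes 19 were above the level, 6 were called higher and 0 lower, and the median difference was 0.52, or 0.20 without the filter on dim probes. For this list and those below, 0.428% of all probes were called higher and 6.8% were separated upward in both constructs. IL6, the cytokine that activates STAT3 through gp130, read 12.68 and 12.91 in the side A HIP1 arrays and 12.53 and 12.41 in the side A vector arrays. In side B IL6 read 11.10, 11.05 and 11.04 in HIP1 arrays and 9.92, 10.18 and 9.86 in vector arrays. IL6 was thus bright on both sides, and the construct separated its side B arrays more than its side A arrays.

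Alongside IL6 were the neutrophil chemokines CXCL2 (1.70) and CXCL8 (1.67 and 1.48 by its 2 probes), and TNFAIP3 (1.09), the deubiquitinase that ends NF-kappaB signalling. IL1B differed by 1.05, and IL1A, which lay at the 2-fold threshold, had the smallest called difference. CCL5, a T cell chemokine, had -0.59 with its arrays separated in both constructs, so the list did not move as a whole. On the IL6 and STAT3 list 20 of 26 genes were above the level, 4 were called higher and 0 lower (median 0.13). These 4 were IL6, MYC, PIM1 and JUNB, of which 3 also stand in lists already given. SOCS3, the feedback inhibitor of STAT3 signalling, had 0.35 and STAT3 itself -0.10.

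The IL6 promoter (chr7:22726950-22727249, plus strand) is shown for its kappaB motif, GGG and TTTCC spaced by 2 bases of any kind, in capitals.
IL6: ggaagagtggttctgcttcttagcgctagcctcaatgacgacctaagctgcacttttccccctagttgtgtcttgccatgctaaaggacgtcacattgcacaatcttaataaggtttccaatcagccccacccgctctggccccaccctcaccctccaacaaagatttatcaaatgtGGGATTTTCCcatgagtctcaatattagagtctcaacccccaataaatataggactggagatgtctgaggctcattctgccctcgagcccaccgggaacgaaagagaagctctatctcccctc

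Metallothioneins, small proteins that bind zinc and copper, had a median of 1.17 over the members above the level and 0.60 without the filter on dim probes, where the immediate early median was 0.74. Of 10 listed genes 6 were above the level, 4 were called higher and 0 lower. MT1E read 11.22 and 11.31 in the side A HIP1 arrays and 10.89 and 10.84 in the side A vector arrays. In side B MT1E read 8.87, 8.37 and 8.20 in HIP1 arrays and 8.70, 8.69 and 8.55 in vector arrays. No side B array comes near the lowest side A array for MT1E, and the constructs overlap in side B.

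MT1X (1.52) and MT1F (1.27) were higher as well, as was SLC30A1, the zinc exporter of the plasma membrane, by at least 1.99-fold. MT2A, the brightest member, had 13.63, 13.69, 14.02 and 14.003 in side A and 13.19 to 13.30 in side B, a difference of 0.60 that did not reach 2-fold. Probes of such similar genes may share signal, and that was not tested.

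Among glucocorticoid-responsive genes, 14 of 18 were above the level, with 5 called higher, 0 lower and a median of 0.49. SGK1, a kinase that regulates ion transport, read 12.06 and 12.10 in the side A HIP1 arrays and 11.997 and 12.20 in the side A vector arrays. In side B SGK1 read 8.82, 9.16 and 9.22 in HIP1 arrays and 10.11, 9.99 and 9.94 in vector arrays. As with DUSP1, its side A values were alike in both constructs and its side B values were not.

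TIPARP (1.41), an ADP-ribosyltransferase, and KLF9 (1.14), a zinc-finger factor, were called too, and DUSP1 and MT1X also stand in this list. FKBP5, the classical chaperone target of the glucocorticoid receptor, had -0.14, and TSC22D3, which encodes GILZ, had 0.37. The promoter of MT1X (chr16:56682220-56682519, plus strand) is shown because it holds the core TGCNCNC of the metal response element in several copies, in capitals.
MT1X: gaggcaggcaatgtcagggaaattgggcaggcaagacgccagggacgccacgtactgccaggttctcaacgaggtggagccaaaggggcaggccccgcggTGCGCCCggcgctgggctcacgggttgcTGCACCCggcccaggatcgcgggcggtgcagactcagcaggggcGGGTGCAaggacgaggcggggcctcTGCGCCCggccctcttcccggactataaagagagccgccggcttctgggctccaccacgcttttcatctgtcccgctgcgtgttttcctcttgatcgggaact

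The integrated stress response list was higher in side A by smaller amounts, with a median of 0.23 in HIP1 and 0.46 in vector arrays. Its members differed in which construct held the larger difference. Of 27 genes 24 were above the level, 3 were called higher and 0 lower, 13 were separated upward in both constructs and 0 downward, and the median was 0.29. ATF3, a repressor induced by stress, differed by 1.98, more in HIP1 (2.45) than in vector arrays (1.51). ASNS, asparagine synthetase, read 10.47 and 10.16 in the side A HIP1 arrays and 11.46 and 11.55 in the side A vector arrays. In side B ASNS read 9.68, 9.69 and 9.60 in HIP1 arrays and 9.40, 9.43 and 9.59 in vector arrays. ASNS was close in all 6 side B arrays and split by construct in side A, with 0.66 in HIP1 and 2.03 in vector arrays.

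PSAT1, an enzyme of serine synthesis, showed the same asymmetry as ASNS (0.68 and 1.63). DDIT3, which encodes CHOP, had 0.93 and, like ATF3, differed more in HIP1 (1.27) than in vector arrays (0.59). For ATF4 the brightest probe, which stands for the gene in the list, had 0.37, while a dim probe was called with at least 2.05-fold, so its probes disagree in size. In the unfolded protein response list HSPA5, the chaperone BiP, was the 1 gene called among 16 above the level (1.22), and HSP90B1 had 0.13 and CALR -0.16. The ASNS promoter (chr7:97872359-97872658, minus strand) is shown for its TGATGNAA motif, the element bound by CEBP-ATF dimers, in capitals.
ASNS: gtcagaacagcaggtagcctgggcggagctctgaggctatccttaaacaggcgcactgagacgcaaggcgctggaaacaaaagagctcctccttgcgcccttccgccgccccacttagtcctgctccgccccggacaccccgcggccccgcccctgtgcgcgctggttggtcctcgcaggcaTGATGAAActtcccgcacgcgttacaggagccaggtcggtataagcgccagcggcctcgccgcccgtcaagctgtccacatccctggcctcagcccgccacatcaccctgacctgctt

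DDIT4, an inhibitor of mTORC1 induced by stress, hypoxia and glucocorticoids and named as a marker of the sides, was called higher with a modest difference of 1.02. DDIT4 read 11.62 and 11.69 in the side A HIP1 arrays and 9.80 and 9.80 in the side A vector arrays. In side B DDIT4 read 11.09, 11.02 and 11.01 in HIP1 arrays and 8.29, 8.47 and 8.36 in vector arrays. The construct thus separates DDIT4 more than the side does, and every side B HIP1 array lies above every side A vector array.

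The 5 genes whose construct-adjusted values over the 10 arrays were most like those of DDIT4 were PSAT1 (Pearson r 0.995), IL1B, IER3, the histone gene H2AC18 and LIF (0.983). These 10 points share the sides and the same arrays, so the values describe likeness only. Of 15 genes of DDIT4 and mTORC1 control above the level, DDIT4 alone was called, and the median was -0.05. The DDIT4 promoter (chr10:72273674-72273973, plus strand) holds the core ACGTG of the hypoxia response element, in capitals.
DDIT4: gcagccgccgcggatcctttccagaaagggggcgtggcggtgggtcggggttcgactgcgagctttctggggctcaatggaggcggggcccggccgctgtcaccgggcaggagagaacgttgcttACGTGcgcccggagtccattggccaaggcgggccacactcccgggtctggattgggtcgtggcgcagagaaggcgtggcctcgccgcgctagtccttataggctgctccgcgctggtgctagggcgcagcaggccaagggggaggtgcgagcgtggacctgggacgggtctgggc

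Of the 47 named genes, 38 matched a RefSeq promoter, out of 27305 promoters in the table, and each motif was searched on both strands. Each share is set against all promoters in the table and against the 7348 promoters of genes described here. TGACGTCA was in 7.89% of the 38, against 1.98% of all promoters and 3.46% of those of genes described. The kappaB motif was in 7.89%, against 1.92% and 2.34%, and TGATGNAA in 5.26%, against 3.67% and 1.65%. These shares are 3, 3 and 2 of the 38 genes. ACGTG, which also matches inside the E-box CACGTG, was in 23.7%, between 21.6% of all promoters and 27.9% of those of genes described, and CACGTG was in 10.5%, against 7.43% and 10.6%. TGTTTAC of FOXO factors was in 2.63%, between 3.41% and 2.27%. The STAT motif TTCNNNGAA was in 10.5%, against 7.88% and 6.25%, and TGCNCNC in 68.4%, against 55.2% and 63.9%. The CArG box, spelled here by name, was in 2.63%, against 1.29% and 1.06%. The glucocorticoid response element, GNACA and TGTNC spaced by 3 bases, was in 0 of the 38, against 0.388% and 0.231%. The shown promoters were chosen after their matches were seen, and a match is a description of letters in this window.

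At 2-fold few genes were lower in side A, although with no fold threshold 1034 probes were separated downward and 857 upward. The 2 called probes were SNAR-A1, a small noncoding RNA gene (-1.03), and a probe without a symbol (-1.20). SNAR-A1 belongs to a family of near-identical copies, so its probe may read several of them. At the lower threshold of 1.5-fold, with arrays separated in both constructs, 126 probes were higher (1%) and 25 lower (0.198%).

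TXNIP, an inhibitor of thioredoxin and of glucose uptake, had the lowest value of the FOXO and nutrient-sensing list, with 8.74, 8.67, 9.16 and 9.07 in side A against 9.98, 9.97 and 10.25 in side B HIP1 arrays and 9.51, 9.36 and 9.47 in side B vector arrays. The lysosomal protease CTSB was lower by both of its probes (-0.82 and -0.64). CEMIP (-0.98), a hyaluronan-binding protein, PTGES (-0.86), which makes prostaglandin E2, SERPINE2 (-0.75), a protease inhibitor, and GPX1 (-0.64), a glutathione peroxidase, were chosen after their values were seen. CEMIP differed mostly in HIP1 arrays (-1.65, and -0.30 in vector arrays, with its side A mean just below the level), while SERPINE2 was nearly alike in both (-0.77 and -0.72).

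The lists given in this paragraph had medians of -0.12 to 0.20. Their calls at 2-fold were few or none, close to the 0.428% of all probes called. None of 31 DNA replication genes (median -0.02) and none of 30 mitosis genes (median -0.04) was called. Of the mitosis genes 6 were separated lower and 1 higher in both constructs, against 8.2% and 6.8% of all probes. MKI67, the proliferation antigen, read 7.38 to 7.48 in side A and 7.63 to 8.04 in side B. Among 31 interferon-stimulated genes 0 were called and 8 were separated higher (median 0.04), against 6.8% of all probes separated higher. The highest, IFI27, had 0.77. Of 29 hypoxia and glycolysis genes, BHLHE40 alone was called, and the median was -0.12. Acute-phase and complement genes (13 above the level, median 0.11), heat shock proteins (15, 0.04), respiratory chain (19, -0.01) and lysosome and autophagy genes (22, -0.10) had 0 calls each. Sterol and fatty acid synthesis genes had 0 calls of 23 and a median of 0.20, with SCD, a fatty acid desaturase, at 12.08, 11.83, 11.34 and 11.48 in side A against 11.77, 12.09 and 12.04 in side B HIP1 arrays and 9.93, 9.93 and 9.96 in side B vector arrays. SCD was thus higher in side A among vector arrays alone.

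The markers of cell identity were as follows. Of 8 basal epithelium markers ITGB4 and KRT15 were above the level, and KRT5 and KRT14, which define basal cells, were at background on every array (6.23 to 6.55 and 6.18 to 6.52 on the 10 arrays). Of 13 luminal and LNCaP markers KRT8, KRT18, STEAP2 and SLC45A3 were above the level, so the labelled epithelium shows in KRT8 and KRT18 but not in KRT5 or KRT14. Of 8 fibroblast markers 4 were above the level, and their mean lay at 8.41 to 8.71 in side A and 8.20 to 8.86 in side B. Leukocyte and blood markers above the level were CD14 (-0.58), CD68 (-0.55) and HBA2 (-0.04) of 8, PTPRC, the common leukocyte antigen, was below it, and the mean of the 3 lay at 8.34 to 9.02 in side A and 8.93 to 9.29 in side B. None of these 4 marker lists had a called gene. Their median side differences were -0.15 (basal), -0.01 (luminal), 0.02 (fibroblast) and -0.55 (leukocyte and blood). The part of these lower values in the side differences was not tested.

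**Figure D3:**
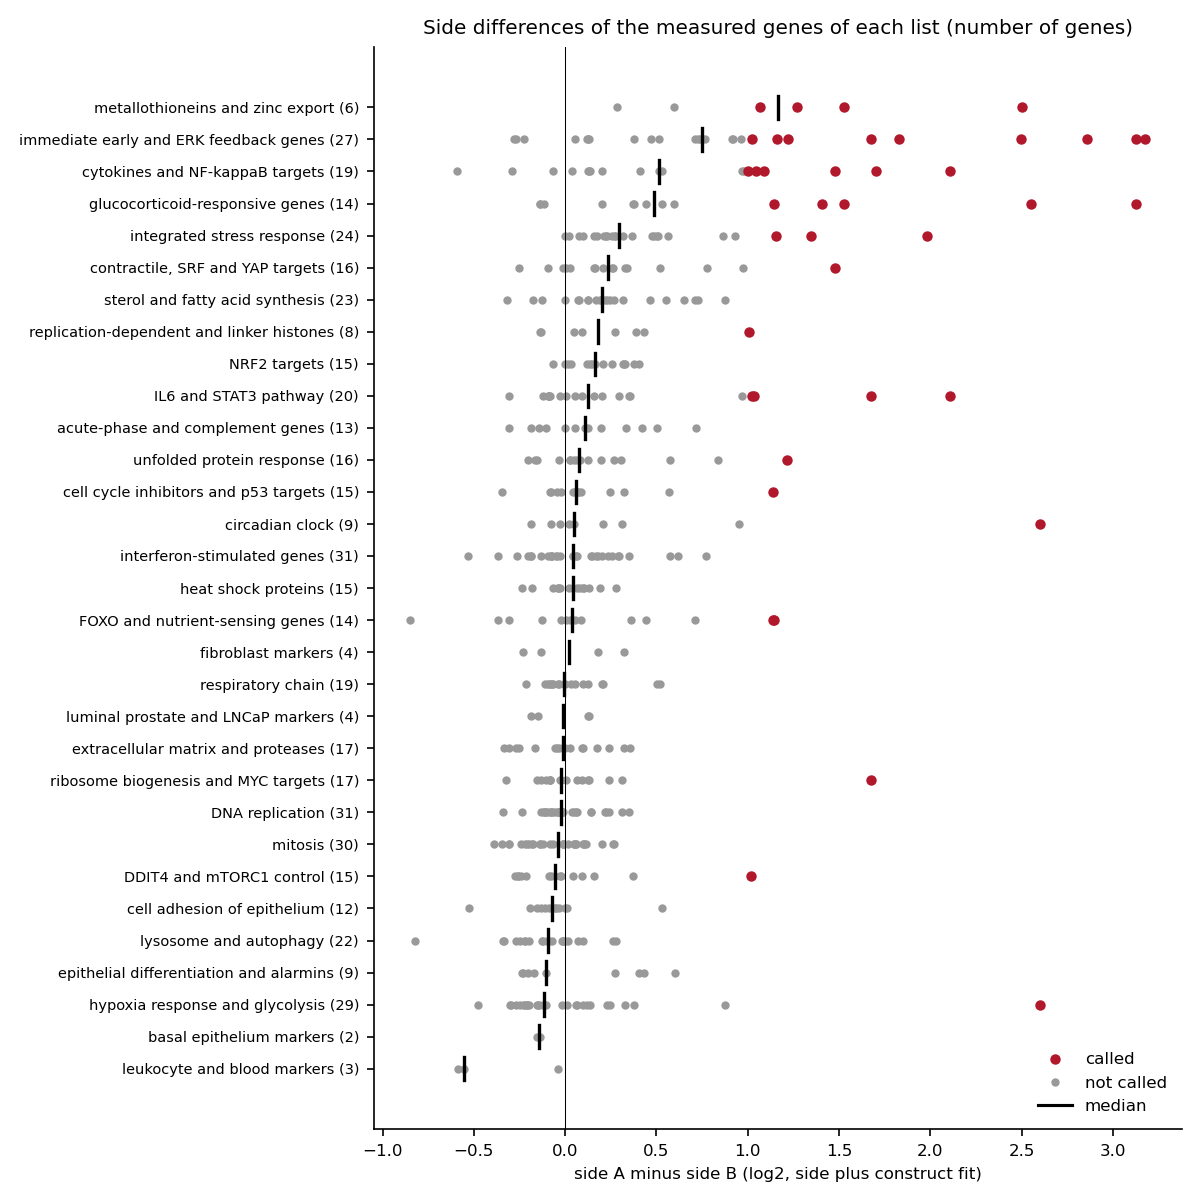
Each row is a gene list, each point the side A minus side B difference (log2) of a gene above the background level, red where called, and the black tick is the median of the list. Metallothioneins (1.17), immediate early genes (0.75), cytokines (0.52) and glucocorticoid-responsive genes (0.49) have the highest medians under this filter (0.60, 0.74, 0.20 and 0.37 without it), and replication and mitosis genes centre near 0.

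SAA4, an acute-phase apolipoprotein and the other marker given for the sides, did not mark them. SAA4 read 9.80 and 9.74 in the side A HIP1 arrays and 8.67 and 8.66 in the side A vector arrays. In side B SAA4 read 10.48, 10.15 and 9.98 in HIP1 arrays and 7.68, 8.01 and 7.83 in vector arrays. Side A was lower in HIP1 and higher in vector arrays, so the fitted difference was 0.20 and SAA4 was not called. The sides are therefore described here by their immediate early genes, and no label or marker shows them to be a state of the culture. Most like SAA4 over the 10 construct-adjusted arrays were CLCN6 (r 0.954), IFITM3, REXO2, SAP18 and ALDOC (0.933).

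Genes whose side difference ran opposite ways in the constructs, each by at least 1.5-fold with separated arrays, were few. They were chosen after their values were seen. The second component, with 18.7% of the variance, also ran opposite ways, so the pattern is not confined to these genes. There were 8 probes lower in side A in HIP1 arrays and higher in vector arrays, and 4 the other way, beside 90 probes higher in both and 8 lower in both. The 8 included secreted products of inflamed epithelium. LCN2, a siderophore-binding protein, read 13.51 and 13.39 in the side A HIP1 arrays and 14.09 and 13.90 in the side A vector arrays. In side B LCN2 read 14.03, 13.98 and 14.15 in HIP1 arrays and 11.87, 12.13 and 11.87 in vector arrays. The side B vector arrays are the low ones for LCN2, and the other 3 groups lie close together.

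PI3, the protease inhibitor elafin, had -0.64 in HIP1 arrays and 1.85 in vector arrays, S100A9, a subunit of calprotectin, -1.15 and 0.68, and SAA1, an acute-phase protein, -0.82 and 0.85. CSF3, G0S2, IL24 and VNN3P completed the 8. In the opposite group were ID2, an inhibitor of helix-loop-helix factors (2.33 in HIP1 and -0.74 in vector arrays), DKK1, a Wnt antagonist (1.04 and -0.78), KRT8, the luminal keratin (0.95 and -0.70), and MIR181A2HG (0.63 and -0.60).

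The related ID3 was called, but most of its difference lay in HIP1 arrays. ID3 read 12.65 and 12.70 in the side A HIP1 arrays and 11.48 and 11.90 in the side A vector arrays. In side B ID3 read 9.63, 9.28 and 9.40 in HIP1 arrays and 11.18, 11.29 and 11.12 in vector arrays. The side B HIP1 arrays are the low ones for ID3, with 3.24 in HIP1 and 0.49 in vector arrays. Whether the side differences of these genes differ between constructs was not tested, since the sides came from the same values.

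**Figure D4:**
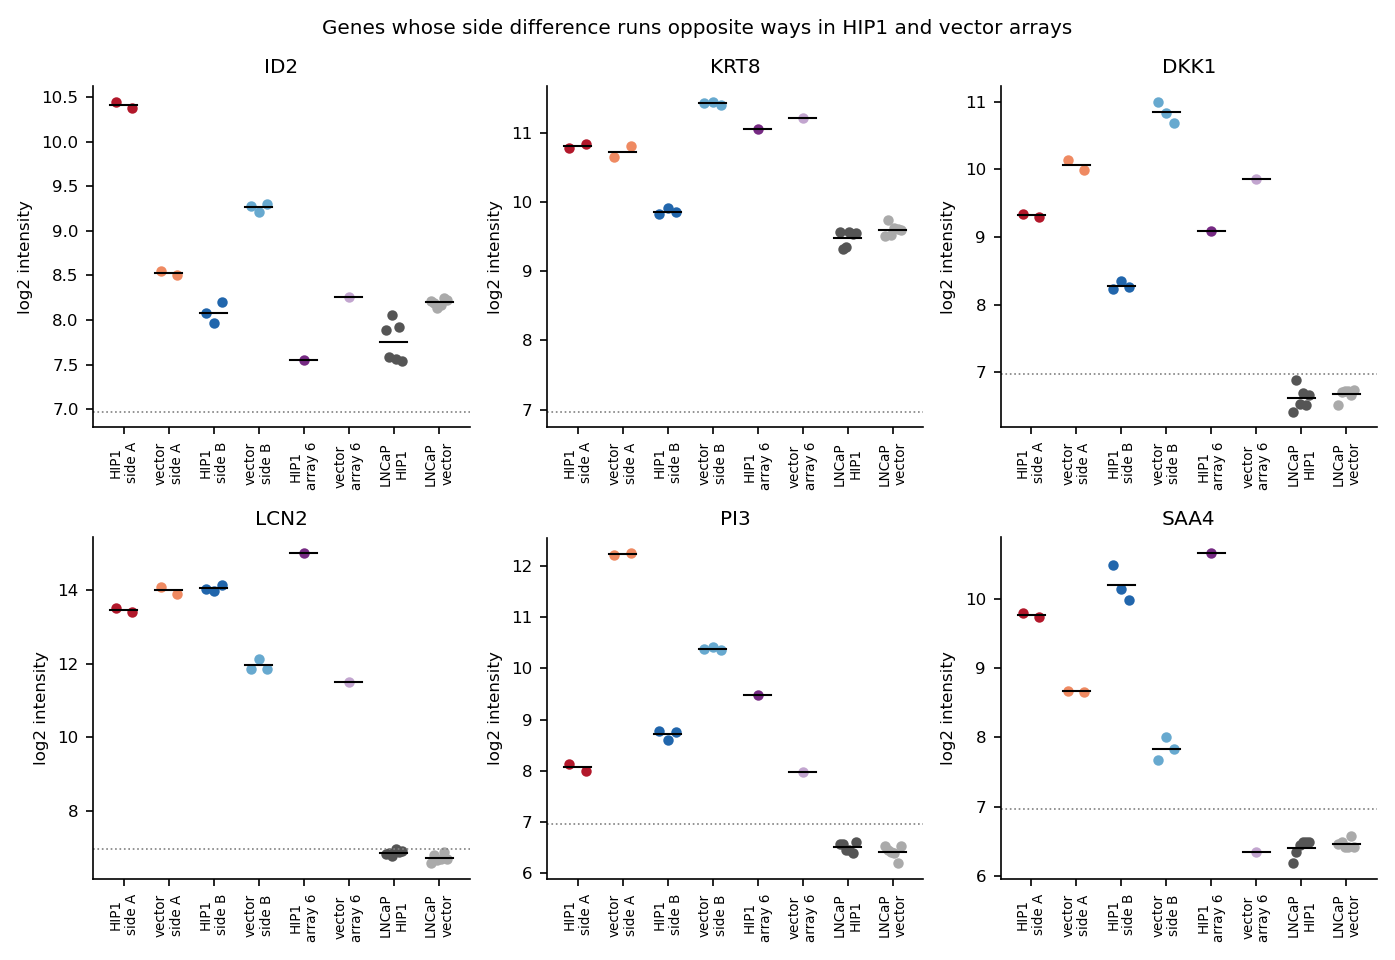
Each panel shows 1 gene with the log2 intensity of every array on the y axis, black bars for group means and a dotted line at the background level of 6.97. ID2, KRT8 and DKK1 are higher in side A in HIP1 arrays and lower in vector arrays, and LCN2, PI3 and SAA4 are the other way round.

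The PNT1a arrays numbered 6 took no part in choosing the sides or the genes, but they are set here against the side B arrays, whose low values helped to choose the 54 probes, so the shares that follow are partly fixed by that choice. On the HIP1 array 21 of the 54 probes (38.9%) lay at least 2-fold above the highest side B HIP1 array, where 2.59% of all probes described did so. On the vector array it was 15 of 54 (27.8%), where 2.32% of all probes did so. The median of the 54 above the side B mean was 0.85 on HIP1 array 6 and 0.31 on vector array 6, against 1.40 and 1.41 on the side A arrays of those constructs. The arrays numbered 6 did not follow 1 side, and 14 of the 54 probes on the HIP1 array and 5 on the vector array exceeded the lowest side A array of their construct. The immediate early list mean was 9.90 on HIP1 array 6, above side A (9.59 to 9.61). On vector array 6 it was 9.66, between side A (9.95 to 9.98) and side B (8.87 to 8.94). The cytokine list mean was 9.62 on HIP1 array 6, above side A, and 8.65 on vector array 6, below side B. FOS stood at 10.22 on HIP1 array 6, above both side A HIP1 arrays, and at 9.10 on vector array 6, below both side A vector arrays, and EGR1 stood at 13.41 and 12.21, above both side A HIP1 arrays and between the side A vector arrays. MT1E stood at 9.01 and 9.93, between the sides, and MT1F at 7.94 and 7.51, within the side B range. TSC22D1 stood at 7.09 and 7.50, below every side B array, whereas ASNS was at 12.17 on both, above every side A array. Since these arrays also stand apart from their groups in many other genes, they are assigned to neither side.

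**Figure D5:**
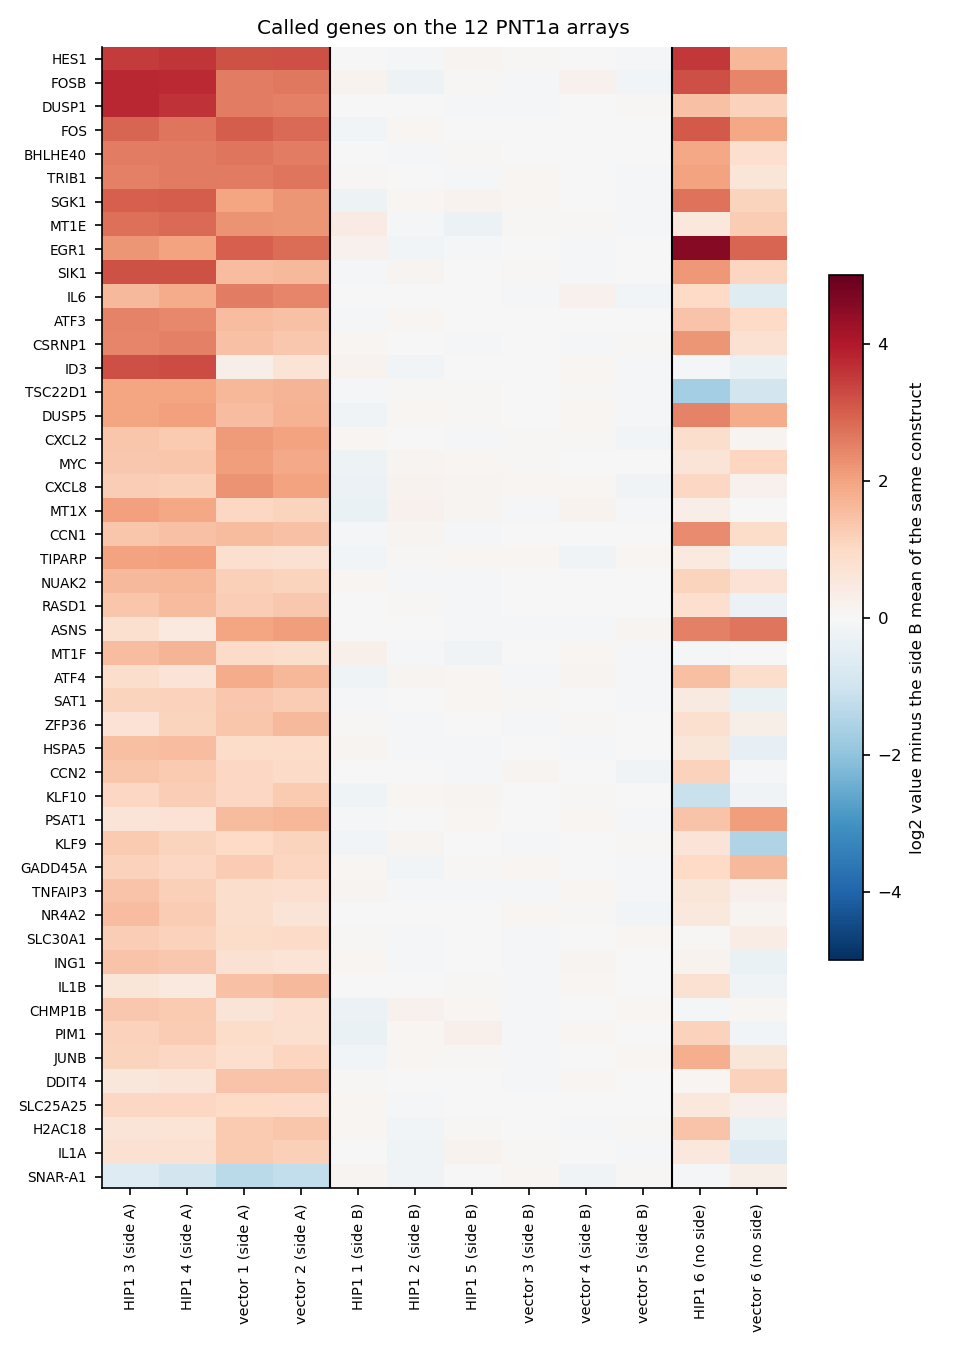
Rows are the called genes, columns the 12 PNT1a arrays, and colour the log2 value minus the side B mean of the same construct. HES1 (3.37), FOSB (3.18) and DUSP1 (3.13) have the largest side differences, SNAR-A1 (-1.03) is the 1 named gene lower in side A, and the columns of the arrays numbered 6 are high for EGR1 and ASNS and low for TSC22D1.

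The construct contrast is a comparison that the sides leave balanced, since each side holds as many HIP1 as vector arrays. Without a side term, limma called 5712 of the 12605 probes between HIP1 and vector arrays of PNT1a (45.3%), with 2944 higher (23.4%) and 2768 lower (22%). Of the 54 probes higher in side A, 4 were called higher and 3 lower with HIP1, which is 13% of them. The 54 were chosen for a large side difference, which this fit leaves in the spread, so a low share was partly fixed in advance. The median size of their construct difference was 0.38, against 0.20 over all probes. With the side as a term 33 of the 54 were called. The share of all probes in that fit is not given here, so nothing is read from the 33. DDIT4 was higher in HIP1 arrays by 2.34 ± 0.29 (SE, limma adjusted p = 9.67e-06), and all 5 HIP1 arrays lay above all 5 vector arrays. FOS differed by -0.06 ± 0.73 between the constructs (limma adjusted p = 0.957), and both constructs hold arrays of both sides. PSAT1 was lower by -0.93 ± 0.32 (limma adjusted p = 0.0282), a call lost without vector array 1 or 2 or HIP1 array 1, 2 or 5, with the arrays numbered 6 put back and with the replicate block (limma adjusted p up to 0.0923).

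LNCaP arrays took no part in the sides, and several members lay below the background level in that line. Of the 54 probes 39 were above the level on at least 6 of the 12 LNCaP arrays. IL6 (6.30 to 6.85), HES1 (6.42 to 6.67) and CXCL2 (6.23 to 6.70) were below it on every LNCaP array, while ASNS (12.47 to 12.76) and DDIT4 (11.83 to 12.41) lay above all 10 PNT1a arrays. Between HIP1 and vector arrays of LNCaP limma called 880 of 12014 probes (7.32%), with 378 higher (3.15%) and 502 lower (4.18%). Leaving out 1 array gave 198 to 559 higher and 321 to 634 lower, both lowest without HIP1 array 2. Of the 39 members tested there, 7 were called higher and 4 lower, or 28.2%.

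FOS averaged 7.55 ± 0.20 in LNCaP HIP1 arrays and 7.06 ± 0.23 in LNCaP vector arrays (SD, n = 6 each), a difference of 0.49 (limma adjusted p = 0.0047). DUSP1 averaged 9.77 ± 0.17 and 9.31 ± 0.22 in LNCaP HIP1 and vector arrays (0.46, limma adjusted p = 0.00515), and TRIB1 9.18 ± 0.07 and 8.84 ± 0.09 (0.34, limma adjusted p = 0.002). These differences are small beside the side differences of the same genes in PNT1a. Lower with HIP1 in LNCaP were MT1F (-0.65, limma adjusted p = 0.000494), MT1E (-0.34, limma adjusted p = 0.0329) and ID3 (-0.33, limma adjusted p = 0.00726). MT1E lost its call without vector array 5 or HIP1 array 1, 5 or 6 (limma adjusted p up to 0.0775), and with limma over all 24 arrays 0 of the members were called.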

How the data were processed

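RNA of 24 cultures was measured on Illumina expression arrays. The log2 values were normalized by the authors over all 24 arrays before they were deposited, as seen from sorted columns that differ by at most 0.052 log2 units, with method and software not given in the sources used here. Another table, of raw intensities, has 24 value columns that were not used, because its PNT1a column names match no sample label. Gene symbols came from the platform annotation, in which 28098 probes have 1 symbol, 13 several and 20692 none.

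The sides were fixed arrays chosen from these values, and the members and gene lists were chosen with earlier results of these data known. Side differences came from least squares with side and construct as terms (Python 3.11.15, numpy 2.4.6, pandas 2.3.3). The level of 6.97 is the mode of the values plus 3 SDs of the background below it. In the lists the brightest probe stands for a gene. Construct contrasts used limma 3.58.1 in R 4.3.3 (lmFit, eBayes, Benjamini-Hochberg adjustment over all probes above the level, threshold 0.05), without a block for the replicate number. The code was tested on simulated data. The number of arrays limits the precision, and p-values measure the spread between the samples labelled as replicates.

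The genes named are DDIT4, SAA4, HIP1 and STAT3, the 15 largest called differences each way, up to 4 called or 2 uncalled members of each list, the 5 genes most like DDIT4 and SAA4, and others chosen after their values were seen, which include the uncalled list members named as contrasts. Of 660 listed genes 42 were not found in the annotation. Promoters of 250 bases before to 50 after the start are those of RefSeq (GRCh38.p14), and TGACGTCA, TGCNCNC and the CArG box were added after the genes were known. The alternatives tried were the filter on dim probes, the fold threshold, renormalization, the terms of the fit, each construct alone, another choice of probe, the replicate block and each array left out.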

Additional observations from a re-analysis of the deposited data

Results flagged for a closer look

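Among 270 groups of 6 arrays screened, 21 held an array far from the others of its group. Of these, 14 were PNT1a arrays numbered 6. Chance flags about 1 group in 20 when the 6 values are independent and come from 1 normal distribution. The PNT1a groups hold arrays of both sides and the genes share arrays, so the 21 cannot be read against that share. The HIP1 array 6 stood apart for ASNS (12.17), ATP5F1C (8.54), HIP1 (7.10), IER3 (12.97), INSIG1 (9.72), ITGB4 (8.27) and PDGFRB (10.51). The vector array 6 stood apart for ALDOC (8.64), CD14 (7.90), COL5A2 (8.30), HSPA9 (12.30), IFITM3 (13.47), NQO1 (11.79) and STEAP2 (7.06). PNT1a HIP1 array 1 stood apart for STAT3 (9.39). Among LNCaP arrays, HIP1 array 4 stood apart for COX7B (10.99), MT1X (11.79) and STAT3 (8.50), HIP1 array 2 for GADD45A (10.004), and vector array 6 for BHLHE40 (11.01) and SIK1 (7.50).

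Among the genes named by rule, there were 8 in which every side A array moved one way in HIP1 arrays and the opposite way in vector arrays. Of these genes, ALDOC, CLCN6, IFITM3, REXO2 and SAP18 were named for their likeness to SAA4. SAA4 itself has this pattern, so the count of 8 is partly fixed by that choice. The side difference in HIP1 arrays minus that in vector arrays was -2.64 for LCN2, -2.49 for PI3, -1.26 for SAA4, -0.70 for ALDOC, -0.41 for IFITM3, -0.37 for CLCN6, -0.35 for REXO2 and -0.25 for SAP18. The difference was not tested.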

How the results depend on the processing

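None of the side differences or construct contrasts recomputed changed direction past its threshold. For called genes this was partly fixed in advance, because a call needs separated arrays in both constructs. In settings other than a left-out array, 108 side values of named genes moved beyond their residual spread and 654 did not. With 1 array left out, construct calls of named genes were lost in 42 PNT1a and 12 LNCaP results and gained in 16 and 14. Other settings lost 13 and 8 and gained 25 and 4. Without a filter on dim probes the medians were 0.60 for metallothioneins, 0.20 for cytokines and 0.37 for glucocorticoid-responsive genes, and with signal on all 10 arrays the metallothionein median was 1.40. A 1.5-fold threshold gave 126 probes higher and 25 lower. HIP1 arrays alone gave 10 lower probes and medians of 0.64 (immediate early), 1.41 (metallothioneins) and 0.23 (integrated stress response). Vector arrays alone gave 5 lower probes and medians of 0.91, 0.93 and 0.46 for these lists and 0.86 for cytokines. With 1 array left out, 51 to 57 probes were higher and 2 to 4 lower (4 without vector array 4). Same-numbered PNT1a arrays of the constructs correlated at -0.34 to 0.20, but replicates 1 to 4 lie on opposite sides, which fixes the sign, so these values cannot decide whether the numbers pair the samples, and the labels name no pairing. With the replicate block 56 probes were higher and 3 lower in side A.

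In the PNT1a contrast the 12 arrays with number 6 put back gave 1806 probes higher and 1732 lower, with 4 of the 54 called, the replicate block also gave 4, and the side as a term gave 33. The share of all probes with the side as a term is not given here, so nothing is read from the 33. In the LNCaP contrast limma over all 24 arrays gave 77 higher, 158 lower and 0 of the 54, and no filter gave 219 and 330. With 1 LNCaP array left out the counts were 198 to 559 higher and 321 to 634 lower, and both were lowest without HIP1 array 2. The count higher also fell below its 1.5-fold range without HIP1 array 6 (220) or vector array 2 (232) or 5 (224). The cause of these changes was not tested.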
